A study of Mus musculus with 6 samples.

Results

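The regions described here are isolated stretches of the mouse genome with low but not absent cytosine methylation in germinal centre B cells, the antibody-improving B cells of the spleen. They were selected on the measured level: 1 kb regions (tiles) of the autosomes with 3 to 19 CpG positions covered by at least 10 reads in all 6 libraries, no tile of 40 or more positions within 10 tiles on either side, and a mean level of 10 to 50% over the 3 wild-type libraries. This chose 7061 regions out of 81452 isolated regions of any level and 110903 autosomal regions with 3 or more positions. The libraries came from spleens of C57BL/6 mice, 3 labelled as Tet2 knockout (KO) and 3 as Tet2 wild type (WT). The assay was enhanced reduced representation bisulfite sequencing: fragments ending at CCGG, the site of the enzyme MspI, are treated with bisulfite before they are read. The allele, the cells in which Tet2 was lost, the age and sex of the mice, any immunisation, the sorting gate and any pooling of animals are not stated in the labels. Nothing in the labels says that the libraries of a group came from separate animals, so each p-value speaks of the spread over these libraries only, and that spread may be technical. Methylation gives no check of the targeted gene or of the cell type.

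TET2 is an enzyme that oxidises 5-methylcytosine to 5-hydroxymethylcytosine and further forms, a step on the way to unmethylated cytosine. In mammalian cells most CpGs are methylated, CpG islands at promoters are mostly not, and CpG-poor stretches of intermediate level are often found at distal enhancers, where bound transcription factors and TET enzymes keep methylation low. In blood cells, loss of TET2 is known above all for gain of methylation at such distal elements. Bisulfite reads 5-methylcytosine and 5-hydroxymethylcytosine alike, so each level below is the sum of both. A level is also an average over all cells of a library: a change in the mix of cells and a change within each cell cannot be told apart.

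The name "likely distal enhancers" can be checked here only for position. A gene start site lay more than 10 kb away from 3965 of the regions (56.2%) and more than 50 kb away from 1054. It lay 1 to 10 kb away from 1762 (24.95%) and within 1 kb of 1334 (18.9%), and in 611 regions (8.65%) it lay inside the region itself. Among the isolated regions below 10% in WT, 57.8% had a start site within 1 kb, against 8.44% of those over 50 to 80% and 5.25% of those over 80%. In this respect the low-methylated regions stood between the regions below 10% and the methylated bulk, and about 1 in 5 lay within 1 kb of a start site. Start sites of any coding or non-coding gene counted, and for some coding genes both gene ends did. Protein-coding genes held 3872 of them (54.8%). No chromatin or expression measurement was used, so enhancer activity was not tested, and the text calls them low-methylated regions.

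The regions are sequence stretches around MspI sites, and the promoter windows that overlap them show what was read. RefSeq windows of 300 bases (GRCm38.p6, 250 bases before to 50 after a start site) held measured CpGs of 341 of the regions, in 386 windows. Shown first are the windows of 3 start sites whose region was called higher in KO (by the test described below) and that hold at least 3 measured positions. The last window, upstream of Acrbp, is the one with the highest minimum coverage among those with a CpG whose strands differed, a pattern described in the next paragraphs. Each window is written 5′ to 3′ on the strand of its gene, with the CpGs measured in all 6 libraries in capitals.
Hpn, chr7:31110948-31111247, minus strand: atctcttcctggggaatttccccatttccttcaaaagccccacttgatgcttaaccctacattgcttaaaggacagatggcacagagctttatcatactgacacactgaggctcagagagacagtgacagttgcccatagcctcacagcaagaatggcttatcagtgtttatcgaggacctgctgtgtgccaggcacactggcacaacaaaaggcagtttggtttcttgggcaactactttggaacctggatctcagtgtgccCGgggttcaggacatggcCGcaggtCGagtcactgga
Gm29903, chr7:122244204-122244503, minus strand: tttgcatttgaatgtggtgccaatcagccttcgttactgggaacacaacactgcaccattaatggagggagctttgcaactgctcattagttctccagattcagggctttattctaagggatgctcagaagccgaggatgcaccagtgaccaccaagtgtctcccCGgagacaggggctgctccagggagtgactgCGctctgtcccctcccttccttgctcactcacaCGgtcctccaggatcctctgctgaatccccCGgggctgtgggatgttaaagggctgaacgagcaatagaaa
E030011O05Rik, chr9:96752782-96753081, minus strand: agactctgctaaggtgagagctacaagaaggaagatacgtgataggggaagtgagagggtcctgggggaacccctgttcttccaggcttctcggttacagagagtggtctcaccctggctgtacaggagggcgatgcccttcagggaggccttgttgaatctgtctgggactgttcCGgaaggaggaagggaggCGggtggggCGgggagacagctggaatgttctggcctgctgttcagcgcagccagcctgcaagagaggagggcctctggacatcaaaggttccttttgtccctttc
Acrbp, chr6:125049677-125049976, plus strand: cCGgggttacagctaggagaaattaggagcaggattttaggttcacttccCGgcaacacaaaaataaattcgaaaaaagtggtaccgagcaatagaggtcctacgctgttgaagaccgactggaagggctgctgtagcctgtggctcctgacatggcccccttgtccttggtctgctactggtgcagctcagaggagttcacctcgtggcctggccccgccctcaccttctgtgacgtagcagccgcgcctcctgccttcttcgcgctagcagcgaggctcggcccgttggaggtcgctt

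In the Hpn window, at the start of a gene for a membrane serine protease, the 3 measured CpGs lie at positions 13, 31 and 38 from the start site. Their mean level was 49.5%, 39.6% and 64.3% in the WT libraries and 73.0%, 81.3% and 71.8% in the KO libraries. Every KO library was above every WT library, and each of the 3 CpGs was higher in the KO mean, at 72.1% against 56.0%, 89.9% against 64.1% and 64.1% against 33.3%. At Gm29903, a long non-coding RNA gene beside Chp2, 4 CpGs averaged 33.4%, 34.2% and 56.5% in WT and 68.0%, 63.6% and 72.2% in KO. The groups did not overlap, and the CpG at position -21 was the lowest in both groups, at 19.6% and 43.2%. At E030011O05Rik, a long non-coding RNA gene beside Zbtb38, 3 CpGs at positions -74, -56 and -47 were nearly unmethylated in WT, at 0.654%, 2.999% and 9.56%, and at 21.4%, 27.2% and 22.8% in KO. Coverage of these CpGs ran from 69 reads (Hpn) to 297 reads (Gm29903) per library. The regions of these windows were called, with adjusted p = 0.0140, 0.0308 and 0.00125 in this order (limma-moderated test), and the windows were singled out by those calls, so their differences are given as a description.

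The Acrbp window shows a feature of the measurement that bears on the choice of regions. Its 2 measured CpGs each lie in a CCGG site and were read on both strands. At the CpG at position -249 the plus strand was at 58.3%, 82.3% and 73.6% in WT and the minus strand at 0% in all 6 libraries, where the shallowest, with 30 reads, allows up to 10% (3 reads; counting error only). At position -200 the strands were reversed, with 0% to 6.67% on the plus strand and 87.9% to 100% on the minus strand. The window mean of 41.5% ± 4.32 in WT (SD, n = 3) is therefore the average of methylated and unmethylated calls, and it did not differ between genotypes beyond that spread (43.9% ± 1.67 in KO).

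Over all low-methylated regions, 1393 of the 6786 CpGs read on both strands (20.5%) had 1 cytosine under 10% and the other over 50% in the mean of the 6 libraries. The share was 18.8% in isolated regions over 50 to 80%, 0.853% in those over 80% and 0.0102% in those under 10%. In the low-methylated regions the low cytosine of such split CpGs averaged 1.09% to 2.11% per library and the high cytosine 83.2% to 87.2%, and their median coverage was 52.3 and 51.8 reads against 98.8 for other CpGs read on both strands. In the RefSeq promoter windows, inside or outside the low-methylated regions, CpGs read on both strands with a cytosine over 50% were compared by site. Of those in an MspI site 26 of 261 were split, against 0 of 333 outside such sites. As background, cut ends are filled in with unmethylated cytosine when such libraries are made. Whether the filled bases were trimmed is not stated in the labels, and their part in the split was not tested. A split CpG was found in 789 of the 7061 regions (11.2%), and 1693 others held a position under 10% beside one over 50% without a split CpG. With the low cytosine of each split CpG left out, 674 of the 789 lay above 50% and 427 above 80%, with a median WT level of 82.2%. Of the 7061 regions, 6380 (90.4%) then still met all limits.

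The libraries listed 1578479 to 1733270 CpG positions each at a mean coverage of 100.6 to 124.6 reads, and 1463044 positions were covered in all 6. In the low-methylated regions the median coverage was 103 reads per position, the median number of positions was 5, and a region held 30 to 76102 reads per library. Reads of a region are summed over its positions here and below, so a read that spans several positions counts once for each. WT replicate 1 stood lowest among the WT libraries in 46.4% of the regions, against 28.2% and 25.4% for the others. The levels of the regions correlated at Pearson's r = 0.70 to 0.72 between WT libraries and 0.86 to 0.89 between KO libraries, over 7061 regions that share their libraries. Between genotypes r was 0.64 to 0.80, and WT replicate 3 correlated more with each KO library (0.77 to 0.80) than with either other WT library (0.72). The median SD of a region was 5.38 points in WT and 4.003 points in KO. It was also larger in WT in the other isolated regions. The values were 5.75 against 3.84 points over 50 to 80%, 3.41 against 2.38 over 80% and 0.753 against 0.668 under 10%. The choice was made on the WT mean, and its part in the lower WT correlations and the larger WT spread of the low-methylated regions was not tested.

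Methylation of the low-methylated regions was higher in the KO libraries than in the WT libraries. The mean over the 7061 regions was 28.8%, 31.9% and 32.1% in WT (30.9% ± 1.82, SD, n = 3) and 36.1%, 36.0% and 35.6% in KO (35.9% ± 0.257). All 3 KO libraries lay above all 3 WT libraries, by 4.97 percentage points in the mean and 3.37 in the median region. The KO mean was above the WT mean in 5153 regions (73.0%). It was higher by 10 points or more in 1454 and lower by as much in 74, with a range from -19.8 to 53.0 points. Because the WT levels chose the regions, a part of this difference is set by the choice, and it is given without a test.

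Other ways of choosing gave other sizes, as the plot of library means by choice shows. Chosen by the mean of the 3 KO libraries, 6599 regions stood at 27.7% in WT and 30.7% in KO, a difference of 2.97 points even though this choice pulls the other way. Chosen by the mean of all 6 libraries, which treats both genotypes alike, 6837 regions stood at 28.9% ± 1.56 in the WT libraries and 32.9% ± 0.251 in the KO libraries (SD, n = 3). The KO libraries lay above the WT libraries by 3.99 points, and the exact two-sided permutation test gave p = 0.1, the smallest that 3 against 3 allow. Chosen on 2 WT libraries and compared with the WT library left out, the KO mean was higher by 6.23, 3.71 and 3.38 points for WT replicates 1, 2 and 3. Without WT replicate 1 the difference over the 7061 regions was 3.92 points. Regions that held neither a split CpG nor low beside high positions (4579) went from 29.6% ± 2.23 to 35.6% ± 0.333, and the 789 with a split CpG from 41.9% ± 0.430 to 43.9% ± 0.536.

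**Figure D1:**
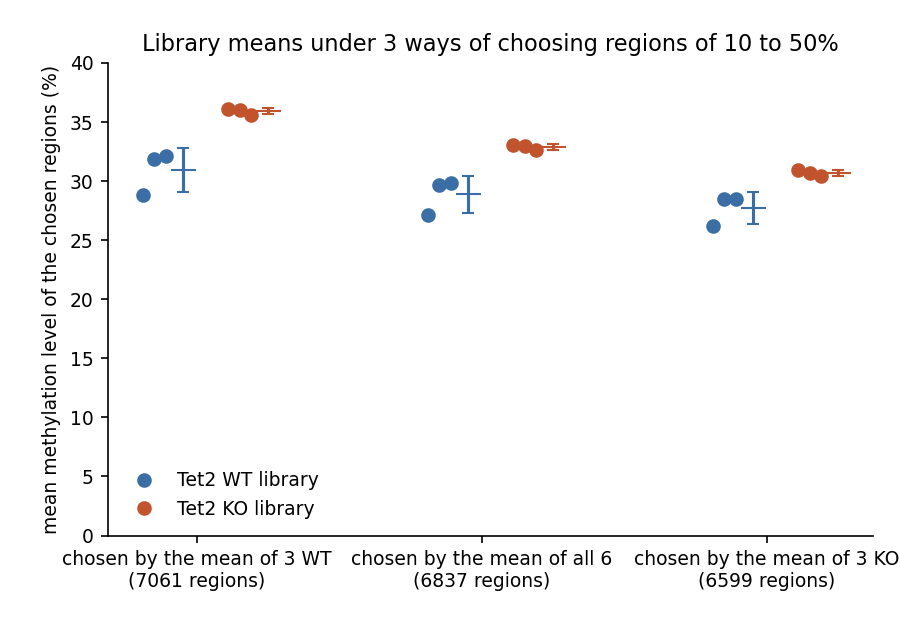
Mean methylation level (%) of the chosen regions in each library, for regions chosen by the WT mean, by the mean of all 6 libraries and by the KO mean; points are libraries and bars the mean ± SD of 3. The 3 KO libraries lie above the 3 WT libraries under each choice, by 4.97, 3.99 and 2.97 points.

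The difference was found at each level between 10 and 50%, and it was not particular to this range. With regions sorted by the mean of all 6 libraries, KO was above WT by 2.87 points between 10 and 20%, by 4.05 between 20 and 30%, by 5.002 between 30 and 40% and by 4.18 between 40 and 50%. Isolated regions of 50 to 80% differed by 3.27 points, those over 80% by 0.852 and those under 10% by 0.525. The KO-minus-WT difference of the 6837 low-methylated regions exceeded that of the 50 to 80% regions by 0.715 points with overlapping libraries (exact permutation p = 0.2). It exceeded that of the regions over 80% by 3.14 points and that of the regions under 10% by 3.46 points, in each case without overlap of the libraries (exact permutation p = 0.1, the smallest possible). Those classes averaged 89.9% and 2.34% in WT, near the ends of the scale, which leaves little room for a difference in points. The size of both contrasts is therefore in part set by the level of the classes. Adjusted over these 3 contrasts the exact p-values were 0.2, 0.15 and 0.15.

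The mean level was lower in the regions than in the covered tiles around them. Only some regions had such neighbours (645 to 1034 covered tiles at each distance), the regions were chosen for a low level, and tiles that were themselves chosen were left out of the flanks, which adds to the contrast. In the WT libraries the mean rose from 30.9% in the region to 48.0% and 49.0% in covered tiles 1 kb away on either side, and it ran between 65.1% and 68.8% from 5 to 10 kb away, as the plot of levels by distance shows. The flanks were also higher in KO, by a smaller amount. Over 6795 covered tiles 1 to 5 kb away that were not themselves chosen, the level was 59.3%, 60.9% and 61.0% in WT and 62.2%, 62.5% and 61.9% in KO. The difference of 1.77 points had no overlap between groups (exact permutation p = 0.1, the smallest possible). Leaving out chosen tiles filters the flanks on the WT levels, so this difference and its test are not free of the choice. Around regions chosen by all 6 libraries, which treats both genotypes alike, the flank difference was 1.89 points, against 3.99 in those regions. A neighbouring tile was also low-methylated for 626 regions (8.87%), and the longest run was 4 tiles.

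**Figure D2:**
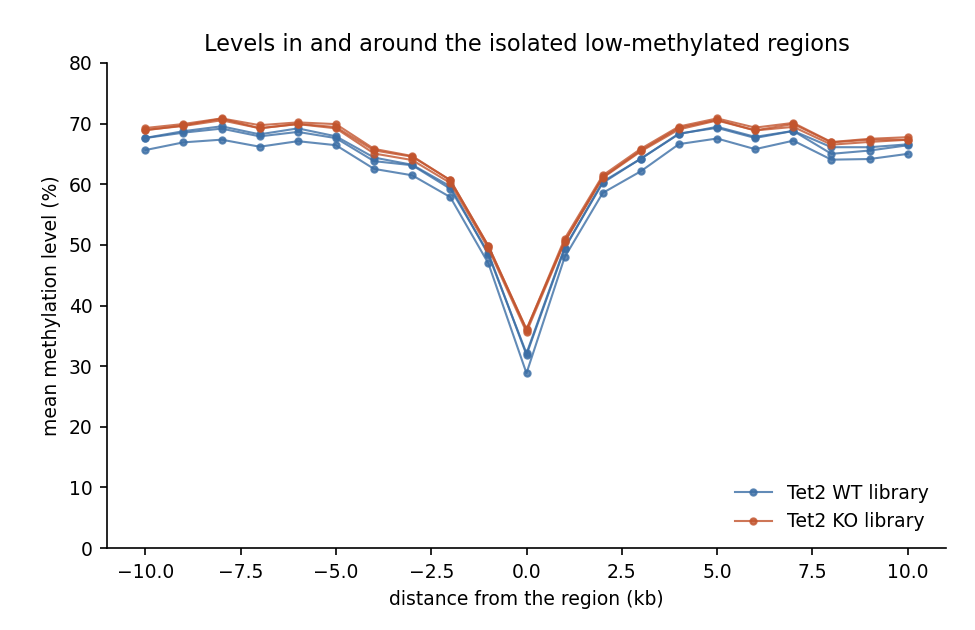
Mean methylation level (%) of each library by distance (kb) from the low-methylated regions, which stand at 0 kb; flanking tiles that were themselves chosen are left out. WT libraries rise from 28.8 to 32.1% at the region to over 64% at 8 to 10 kb, and KO libraries lie above them at each distance.

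Single regions were tested with a per-region quasi-binomial model of methylated and unmethylated reads, with limma's moderation of the spread, over all 83175 tiles with 3 or more positions and a mean of 5 to 95%. A region was called when its Benjamini-Hochberg adjusted p was under 0.05 and the group means lay at least 10 points apart. Among all tested tiles 569 were called higher in KO (0.684%) and 2 lower (0.0024%). Of the low-methylated regions, 213 were called higher (3.02%) and 0 lower, while 1472 and 75 had an unadjusted p under 0.05 in either direction. The KO libraries lay wholly above the WT libraries in 1542 regions and wholly below in 150, where 12.7% and 3.53% of all tested tiles did so. The WT choice favours higher calls, so this share is not read against the background. Among the 6837 regions chosen by all 6 libraries, 176 were called higher (2.57%) and 0 lower. The calls rest on the moderated spread: the same model without moderation and limma on log2 ratios called 0 in either direction, with 980 and 941 of the 7061 at an unadjusted p under 0.05 on the higher side and 65 and 27 on the lower. Without WT replicates 1, 2 and 3, 94, 251 and 375 were called higher, and without KO replicates 1, 2 and 3, 71, 66 and 75.

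The 213 called regions went from a median of 29.3% in WT to 56.7% in KO, as the plot of WT against KO levels shows. Their median difference was 26.4 points (10.6 to 53.0), and 138 of them stood above 50% in KO. Of their 1367 positions, 1304 (95.4%) were higher in the KO mean, and in 176 of the 213 regions every position was. A call asks for a higher KO level of the region, so these shares describe the called regions and support nothing. In the regions not called, 63.0% of positions were higher. Genes held 127 of the called regions (59.6%), and 117 (54.9%) lay over 10 kb from a start site, close to the shares of all low-methylated regions. Depth moved with the calls: 1.82% of regions whose shallowest library was under the median were called, and 4.21% of the others. Calls also moved with the kind of region, at 183 of 4579 without low beside high positions (3.997%), 30 of 1693 with such a mix and 0 of 789 with a split CpG. With the low cytosine of split CpGs left out and the regions chosen anew, 291 of 6381 were called.

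**Figure D3:**
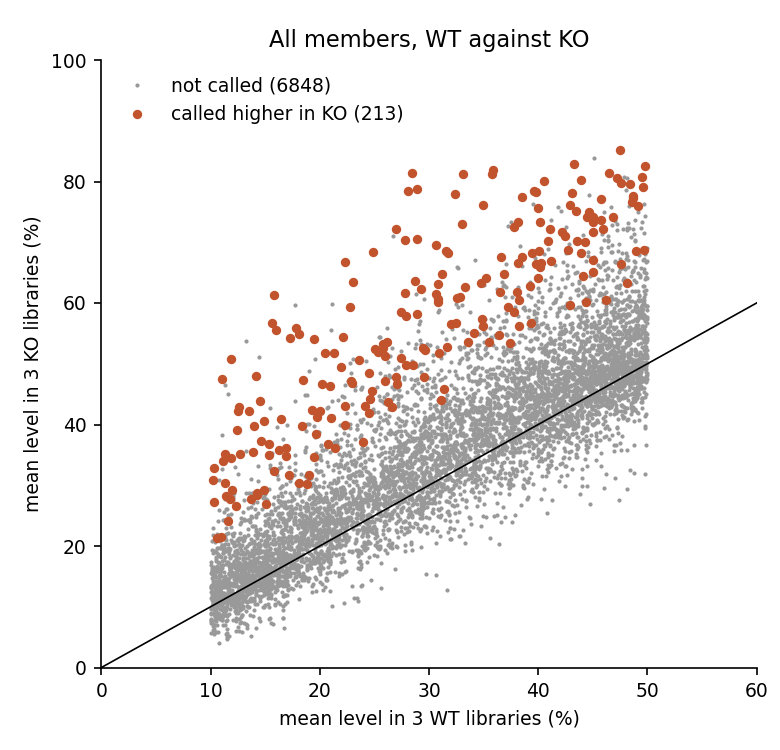
Mean level in the 3 KO libraries against that in the 3 WT libraries (%) for the 7061 regions; the line marks equal levels. The 213 called regions (orange) all lie above the line, with a median of 29.3% in WT and 56.7% in KO.

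Of the 12 largest called differences, 6 lay over 10 kb from a start site and 3 within 1 kb of one. The region nearest Ado, a thiol dioxygenase gene 74046 bases away (chromosome 10, 67623001 to 67624000), was at 13.1%, 43.4% and 29.0% in WT and 73.9%, 87.2% and 83.2% in KO. That is a difference of 53.0 points (adjusted p = 0.0199, limma-moderated test), on 125 to 199 reads per library. In Mtmr3, a phosphoinositide phosphatase gene (chromosome 11, 4534001 to 4535000), the 5 positions were at 22.3%, 32.7% and 44.3% in WT and 83.7%, 76.5% and 83.5% in KO (adjusted p = 0.00223). The groups lay far apart. In Nek7, a kinase gene of mitosis and of the inflammasome (chromosome 1, 138576001 to 138577000), WT stood at 15.3%, 34.1% and 31.5% and KO at 71.7%, 75.4% and 69.3% (adjusted p = 0.00223). In Grhpr, a glyoxylate reductase gene (chromosome 4, 44984001 to 44985000), 9 positions were at 15.1%, 40.3% and 51.9% in WT and 83.9%, 80.1% and 79.6% in KO (adjusted p = 0.00977).

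Some of the largest differences lay near a start site, which need not be that of the gene named. In Ptprj, which encodes the receptor phosphatase CD148, a start site lay 174 bases from the region (chromosome 2, 90478001 to 90479000), at 20.2%, 7.59% and 19.7% in WT and 61.9%, 60.5% and 61.4% in KO (adjusted p = 0.00341). In Tbc1d17, a gene for a Rab GTPase activator, it lay 225 bases away (chromosome 7, 44841001 to 44842000), with 17.0%, 28.6% and 29.1% in WT and 72.0%, 65.4% and 67.6% in KO (adjusted p = 0.00330). The regions in or nearest to Dph5, Lmo4, Auh, Cmtm7, Sox5 and Cass4 differed by 50.3, 49.9, 46.0, 45.6, 44.5 and 42.5 points. Those named for Dph5, Lmo4, Auh and Cass4 lay outside the gene, 30116, 27746, 42107 and 2644 bases away. Lmo4 encodes a LIM-domain cofactor, Sox5 a transcription factor, and Cass4 an adhesion scaffold protein. The KO libraries of all these regions stood at 58.6% or higher, and none of their WT libraries above 53.0%. The regions of these genes and of the listed genes below are shown in the plot of named regions by library.

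**Figure D4:**
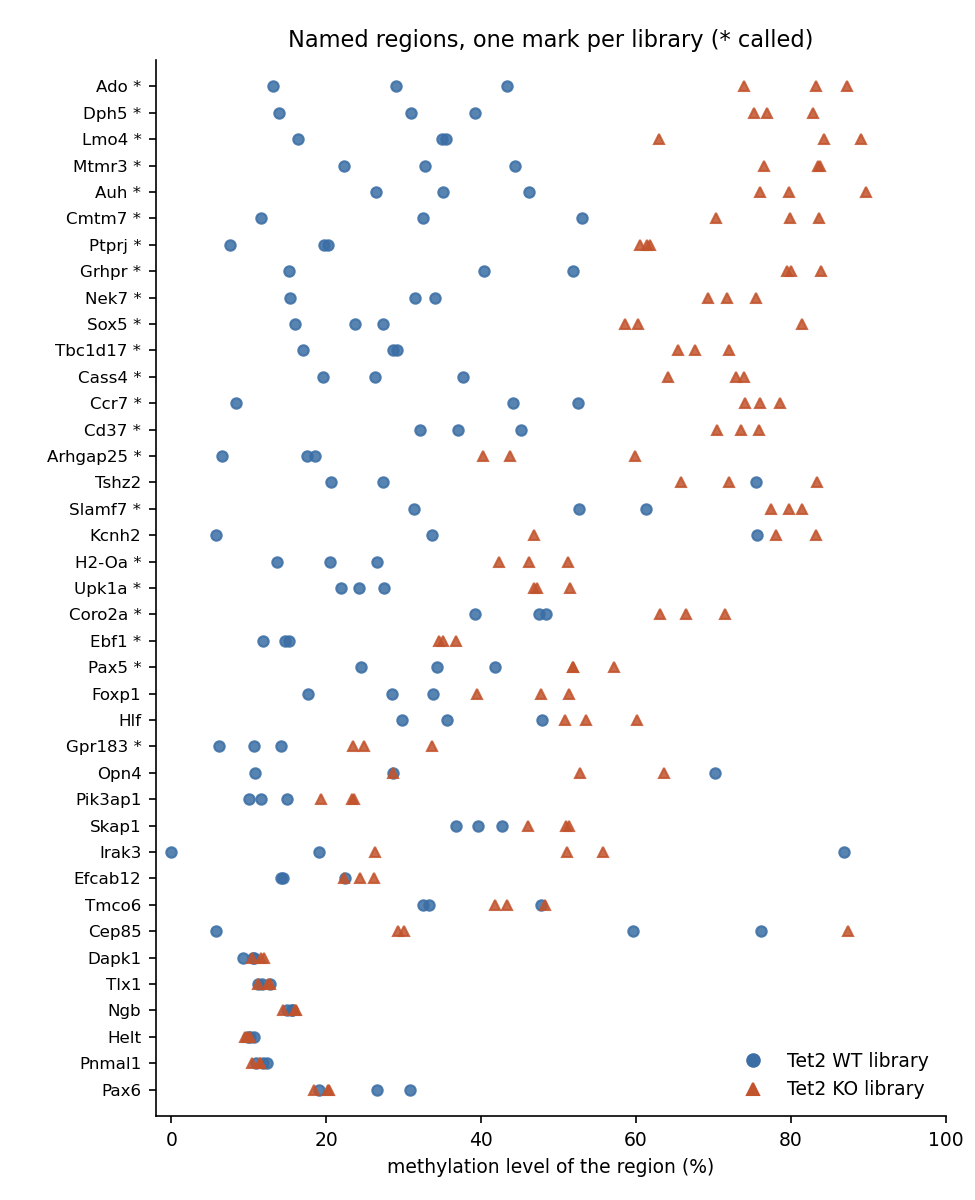
Methylation level (%) of each named region in each library, ordered by the KO-minus-WT difference; circles are WT and triangles KO libraries, names are the gene that holds or lies nearest the region, and * marks called regions. In called regions the circles and triangles do not overlap, while Dapk1, Tlx1, Ngb, Helt and Pnmal1 stay between 9.30 and 16.1% in every library.

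The plot names 22 called regions, each by the gene that holds it or lies nearest. When WT replicate 1, 2 or 3 was left out, 16, 20 and 22 of them passed again, and when KO replicate 1, 2 or 3 was left out, 13, 11 and 11 did (limma-moderated test). Those at Arhgap25, Cass4, Coro2a, Grhpr, H2-Oa, Mtmr3, Nek7, Ptprj, Sox5 and Tbc1d17 were called in all 6 cases, although Coro2a was lost with the highest-coverage positions left out. The highest adjusted p was 0.265, at Lmo4 without KO replicate 1, and the one at Pax5 was called in 1 of the 6 cases, without WT replicate 3 (highest adjusted p = 0.2). Tested with all covered tiles, those at Pax5 and Ccr7 missed the threshold (adjusted p = 0.0519 and 0.0507). Those at Ado, Ebf1, Lmo4 and Upk1a were lost when WT replicate 1 or any KO replicate was left out, those at Ccr7, Dph5 and Slamf7 without any KO replicate, and that at Cmtm7 without WT replicate 2 and without each KO replicate. Gpr183 was lost without WT replicate 1 or KO replicate 2 or 3, Cd37 without KO replicate 2 and Auh without KO replicate 3. With unmoderated spread or limma on log2 ratios, 0 of the 22 were called.

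Low-methylated regions at genes of B-cell identity were mostly higher in KO, and by more than the median region. Of the 21 regions in or within 5 kb of these genes (11 of the 28 listed genes had one), 20 were higher in the KO mean, 3 were called and 13 had KO libraries wholly above WT libraries. Over all 7061 regions 3.02% were called and 1542 had KO libraries wholly above, and over all tested tiles the shares were 0.684% and 12.7%. Their median difference was 18.5 points, against 3.37 over all 7061 regions. The 122 tested tiles of any level at these genes had a median difference of 5.47 points, against 1.27 over all tested tiles, and 6 were called higher. The mean of the 21 regions was 26.6%, 31.9% and 34.7% in the WT libraries and 46.2%, 48.5% and 45.7% in the KO libraries, where KO libraries lay above WT libraries throughout. Chosen by all 6 libraries, 21 regions at these genes had a median difference of 14.2 points, against 2.96 over all regions so chosen. Chosen by the KO libraries, 14 regions had a median difference of 8.78 points, against 2.47 over all. The genes were listed with earlier results of these data known, so this describes the list and does not show that it differs from other genes. The spread of the lists is shown in the plot of differences by gene list.

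The called regions of this list lay at Cd37, Ebf1 and Pax5. In Cd37, a B-cell tetraspanin gene (chromosome 7, 45235001 to 45236000, 2839 bases from a start site), the levels were 32.1%, 37.1% and 45.2% in WT and 75.8%, 73.6% and 70.4% in KO (adjusted p = 0.00694). In Ebf1, whose product commits progenitors to the B lineage, the called region (chromosome 11, 44860001 to 44861000) lay 227564 bases from a start site and was at 11.9%, 15.1% and 14.7% in WT and 36.7%, 34.5% and 35.1% in KO (adjusted p = 0.0176). The groups were tight, with SDs of 1.77 and 1.14 points. In Pax5, which encodes the factor that maintains B-cell identity, the region (chromosome 4, 44615001 to 44616000) was at 34.3%, 24.5% and 41.8% in WT and 51.9%, 57.1% and 51.9% in KO (adjusted p = 0.0475). Its 7 positions did not move alike: a CpG at base 44615530 went from 45.4% in the WT mean to 82.1% in the KO mean, and the one at 44615609 stood at 10.95% and 9.27%.

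Several transcription factor genes of B cells held more than 1 low-methylated region, and these examples were singled out after their values were seen. Ebf1 and its surroundings held 6 regions, all with higher KO means, by 6.79 to 22.3 points, of which 1 was called. Pou2f2, which encodes the octamer factor OCT2, held 3. Those at 25107001 and 25121001 on chromosome 7 were at 41.1% and 36.9% in WT and 62.3% and 63.0% in KO and narrowly missed the threshold (adjusted p = 0.0569 and 0.0677), and the one at 25151001 was at 20.9% and 15.7%. Foxp1, which encodes a forkhead factor of B-cell development, held 3. The one with the smallest p (chromosome 6, 98994001 to 98995000) was at 17.6%, 28.4% and 33.7% in WT and 39.4%, 47.7% and 51.4% in KO (adjusted p = 0.0593). In Irf8, a regulator of germinal centre B cells, 3 regions 11362 to 15155 bases from a start site differed by 1.04, 16.4 and 13.7 points, and none was called. The region with 13.7 points holds a split CpG. Over the 27 regions of the list of lymphocyte transcription factors, 25 were higher in the KO mean, with a median difference of 13.7 points and 0 calls, and 17 had an unadjusted p under 0.05. Over all 7061 regions 73.0% were higher, the median was 3.37 points, 3.02% were called and 1547 had such a p. Chosen by all 6 libraries the list median was 8.97 points (25 regions), against 2.96 over all regions so chosen. Chosen by the KO libraries it was 8.37 points (22 regions), against 2.47 over all.

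**Figure D5:**
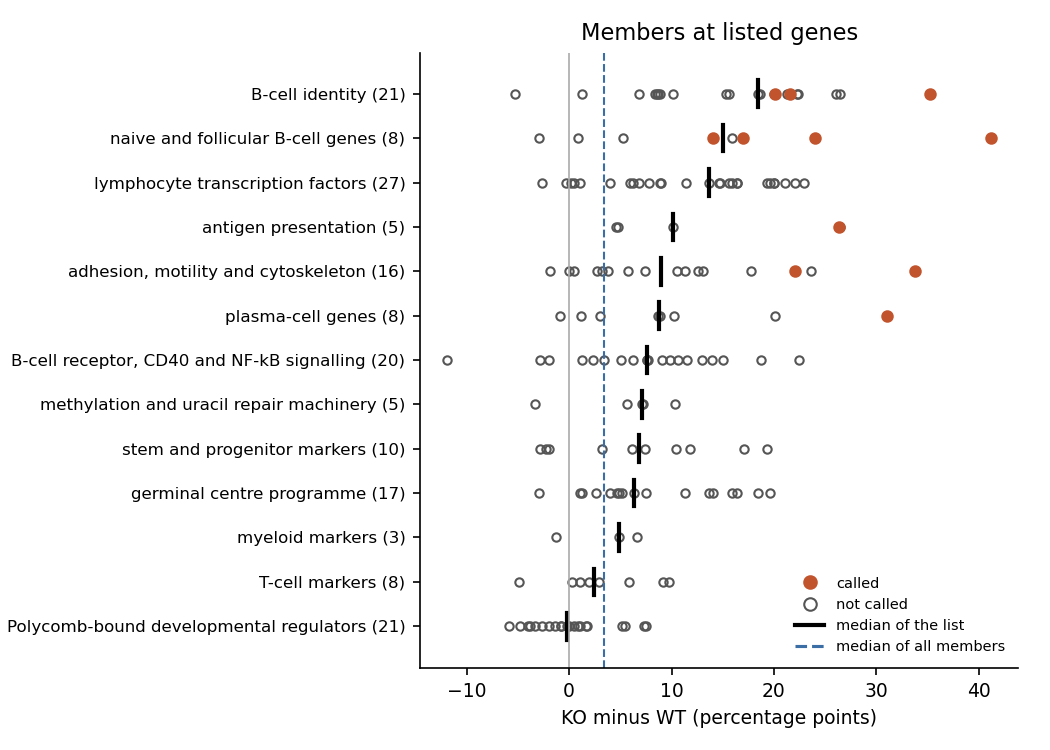
KO-minus-WT difference (percentage points) of each low-methylated region in or within 5 kb of a listed gene, by list with the number of regions; filled points are called, bars are list medians and the dashed line is the median of all 7061 regions (3.37). Medians run from 18.5 for B-cell identity genes to -0.18 for Polycomb-bound developmental regulators.

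Genes of naive and follicular B cells held 8 low-methylated regions, of which 4 were called, where 3.02% of the 7061 regions and 0.684% of all tested tiles were. Their median difference was 15.01 points. Ccr7, a chemokine receptor gene that guides B cells to the T-cell zone, held several of them. They lay near a site that counted as a start site, which may be either end of the gene or the start of another. The one with the largest difference (chromosome 11, 99145001 to 99146000) was at 8.33%, 52.5% and 44.1% in WT and 76.0%, 74.1% and 78.5% in KO (adjusted p = 0.0461). The WT libraries of this region were far apart, and its call was lost without any KO replicate (highest adjusted p = 0.162). The neighbouring called region (99144001 to 99145000) was at 13.7% ± 4.65 and 27.8% ± 4.80 (SD over 3 libraries each; adjusted p = 0.0329). At Gpr183, which lies inside Ubac2 and is an oxysterol receptor gene that positions B cells in the follicle (chromosome 14, 121959001 to 121960000), levels were 10.7%, 14.1% and 6.10% in WT and 23.4%, 24.8% and 33.7% in KO (adjusted p = 0.0216). The fourth lay in Upk1a, within 5 kb of Zbtb32, which encodes a zinc finger repressor of B cells (chromosome 7, 30604001 to 30605000), at 24.5% ± 2.80 in the WT libraries and 48.5% ± 2.61 in the KO libraries (SD, n = 3; adjusted p = 0.0306).

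Plasma-cell genes held 8 regions, with 1 called at Slamf7, a surface receptor gene (chromosome 1, 171645001 to 171646000), at 31.4%, 52.6% and 61.3% in WT and 79.7%, 81.4% and 77.4% in KO (adjusted p = 0.0202). Antigen presentation genes held 5, all higher in the KO mean, with 1 called at H2-Oa, which encodes a chain of the class II loading regulator (chromosome 17, 34094001 to 34095000). Its 13 positions averaged 13.6%, 20.4% and 26.6% in WT and 42.3%, 46.2% and 51.2% in KO (adjusted p = 0.00591), and the call held without each library. The list of adhesion and cytoskeletal genes held 16, with 2 called. Over all 7061 regions 3.02% were called and 73.0% were higher in the KO mean, and 0.684% of all tested tiles were called higher. The region near Arhgap25 (chromosome 6, 87535001 to 87536000) was at 6.46%, 18.5% and 17.5% in WT and 43.7%, 59.9% and 40.3% in KO (adjusted p = 0.00856). Coro2a, an actin-binding coronin gene (chromosome 4, 46581001 to 46582000), was at 47.5%, 48.3% and 39.2% in WT and 66.5%, 63.1% and 71.5% in KO (adjusted p = 0.00298). Its call was lost with the highest-coverage positions left out (adjusted p = 0.0714), with a difference of 22.5 points there against 22.1.

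Other lists of B-cell function held 0 called regions by the limma-moderated test, with 7, 9 and 1 at an unadjusted p under 0.05 in the order given here. Over all 7061 regions 3.02% were called, 1547 had such a p and 73.0% were higher in the KO mean. The germinal centre programme had 17 regions, 16 of them higher in the KO mean (median 6.37 points), and genes of NF-kB, CD40 and B-cell receptor signalling had 20, 17 of them higher (median 7.65). The smallest p in the latter was at Pik3ap1, a signalling adaptor gene (chromosome 19, 41366001 to 41367000), at 12.2% ± 2.51 and 22.1% ± 2.38 (SD over 3 libraries each; adjusted p = 0.0813). The methylation and uracil repair machinery had 5 regions, 4 of them higher. The one with the smallest p lay in Efcab12 beside Mbd4, a thymine glycosylase gene, at 17.0% ± 4.70 and 24.3% ± 1.98 (adjusted p = 0.259).

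Lists of other cell types and of developmental genes held 0 called regions by the same test, and 0, 0, 3 and 2 had an unadjusted p under 0.05 for T-cell, myeloid, stem and Polycomb genes. Over all 7061 regions 3.02% were called, 73.0% were higher in the KO mean and the median difference was 3.37 points. At T-cell markers 8 regions were at 38.8%, 39.5% and 39.0% in WT and 41.6%, 43.4% and 42.2% in KO, with a median difference of 2.41 points and 0 calls (1.52 points over 6 regions chosen by the KO libraries). The smallest p was at Skap1, a T-cell adaptor gene (39.7% ± 2.99 and 49.5% ± 2.93, SD over 3 libraries each; adjusted p = 0.477). Myeloid markers had 3 regions with a median of 4.89 points, led by the one near Cd14 and Tmco6 (adjusted p = 0.608), and stem and progenitor markers 10 with a median of 6.80, led by Hlf, a leucine zipper factor gene (37.7% ± 9.20 and 54.8% ± 4.77, adjusted p = 0.0958). At Polycomb-bound developmental regulators, which Polycomb proteins are known to keep silent in many differentiated cells, 21 regions were at 25.9%, 24.9% and 25.5% in WT and 26.3%, 26.0% and 24.2% in KO. There 10 of 21 were higher in the KO mean and the median difference was -0.18 points. Chosen by all 6 libraries, 24 such regions had a median difference of -0.07. The smallest p of this list was at Pax6, an eye and brain regulator gene (chromosome 2, 105690001 to 105691000), at 25.5% ± 5.97 in WT and 19.6% ± 1.09 in KO (adjusted p = 0.396). The mix of cells in each library was not measured, and its part in these differences was not tested.

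Low-methylated regions were counted in 2787 protein-coding genes, and 280 genes held at least 3. The most lay in the protocadherin gamma cluster on chromosome 18, whose overlapping gene models share their regions (19 in Gm37013, 18 each in Gm38666 and Gm38667, and 13 in Pcdhga1). The WT mean of the 13 in Pcdhga1 was 41.1% ± 0.462 and the KO mean 44.0% ± 3.65 (SD over 3 libraries each), and 7 were higher in the KO mean. Gse1, which encodes a subunit of a histone deacetylase complex, held 17, at 22.9%, 27.4% and 29.7% in WT and 31.8%, 32.8% and 31.8% in KO, and 15 were higher in the KO mean. Igsf21, an immunoglobulin superfamily gene, held 12, at 19.9%, 23.3% and 20.4% in WT and 27.7%, 20.6% and 21.4% in KO, with overlapping groups. None of the regions in these genes was called. Pcdhga2, Pcdhga3 and Pcdhgb1 of the same cluster held 12, 10 and 10 of the shared regions. Of the 124 genes with a called region, 4 held 2: Adam18, Ccr7, Dtx1 and Fam178b. The called pair of Dtx1, a Notch pathway ubiquitin ligase gene, differed by 14.5 and 21.3 points.

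Among regions with 10 or more positions, the 5 that varied least lay at the low end of the range. The region in Ngb, the neuroglobin gene (chromosome 12, 87102001 to 87103000), was at 15.5%, 14.96% and 15.6% in WT and 14.4%, 16.1% and 15.96% in KO. The one in Helt, a neural transcription factor gene, was at 10.7%, 10.2% and 9.84% in WT and 9.49%, 10.1% and 9.76% in KO. The one in Pnmal1 and those nearest to Dapk1 and Tlx1 (119723 and 6058 bases away) stood at 11.7%, 10.2% and 11.9% in WT and at 11.1%, 11.3% and 12.1% in KO. At the other end, the largest WT spread among regions not called was near Irak3, a regulator gene of innate signalling, at 86.8%, 19.05% and 0% in WT and 51.1%, 55.7% and 26.3% in KO, on 33 to 122 reads per library. The value of 0% rests on 33 reads summed over 3 positions. The same reads may span these positions, so no upper limit is given. Cep85, a centrosome protein gene, was at 5.71%, 59.6% and 76.2% in WT and 30.04%, 87.3% and 29.3% in KO. It held 592 to 1691 reads per library, summed over 5 positions, so a wide spread was also found at high depth. The others were near Kcnh2, Opn4 and Tshz2, with WT SDs of 35.2, 30.5 and 29.96 points.

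Besides the flank level, 3 measures other than the level itself were compared by library, and their groups overlapped. The SD of CpG levels within a region averaged 23.0, 25.03 and 24.3 points in WT and 23.4, 24.5 and 23.2 in KO (exact permutation p = 0.7). The absolute difference between the strands of a CpG was 28.1 ± 1.64 points on average in the WT libraries and 27.3 ± 2.08 in the KO libraries over 6779 CpGs (SD, n = 3; exact permutation p = 0.5). The low-methylated regions took 2.71% ± 0.126 of the autosomal reads in WT and 2.68% ± 0.0561 in KO (exact permutation p = 0.8). Adjusted over these 3 and the flank level, the exact p-values were 0.8, 0.8, 0.8 and 0.4. The levels of single positions make up the WT levels that chose the regions, so their classes are given as a description: 29.7% ± 1.76 of the 42139 positions were under 10% in WT and 24.2% ± 1.30 in KO, while 18.8% ± 1.92 and 23.5% ± 0.569 lay from 50 to under 90%. The share from 10 to under 50% was 47.0% in both. Intermediate region levels were often averages of unlike positions: in the WT mean the positions of a region spanned a median of 47.1 points, and in 824 regions (11.7%) all of them lay between 10 and 50%.

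Short sequence patterns were counted on both strands of 385 distinct promoter windows that hold measured CpGs of low-methylated regions, and of all 32817 windows. Chromosome 18 was left out of the 385 but not of the 32817, so the 2 sets are not fully alike. The EBF1 pattern TCCCNNGGG was in 8.83% and 6.56%, and the E-protein pattern CAGGTG in 25.5% and 20.2%. The NF-kB pattern GGGANNTCC, which can share its end letters with the EBF1 pattern, was in 4.68% and 4.29%. PU.1 (GAGGAAGT) was in 2.86% and 3.20%, RUNX (TGTGGTT) in 4.42% and 5.27%, OCT (ATTTGCAT) in 1.82% and 1.74% and AP-1 (TGANTCA) in 5.71% and 7.81%. The MspI site CCGG was in 99.2% and 52.8%, as the assay reads DNA from that site. The windows held a median of 9.5 CpGs against 7 in all windows. These are shares of windows, and a match is not a bound site.

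The limits of the choice separate regions that differ little. Just inside the lower limit, a region in Tef had a WT mean of 10.01% and a KO mean of 7.68%, and just outside it one in Slc26a5 was at 9.997% and 9.45%. Just inside the upper limit, a region in Pnmal2 was at 49.99% and 54.3%, and just outside it one in Klhl32 was at 50.003% and 52.7%.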

How the data were processed

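Each of the 6 deposited files gives, for every CpG cytosine, a count of reads (coverage) and 2 columns with the percent read as C and as T, per the file headers. Reads were aligned with Bismark to GRCm38, per the submitters' processing notes; its version, any trimming and the authors' tests are not stated there. The lowest deposited count of reads at a position was 10. Coverage times percent gave whole numbers of methylated and unmethylated reads at every position, to within the rounding of the deposited percent. Copies of 1 molecule could not be told apart. Gene positions and promoter windows came from RefSeq (GRCm38.p6), and all 41498 CpGs read on both strands in these windows are CG there. Start sites of coding and non-coding genes counted alike, and for coding genes without a window both gene ends did.

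A region's level is methylated over all reads of its positions, and group values are unweighted means ± SD of 3 libraries. The quasi-binomial model had a Pearson dispersion moderated by limma's method (Python 3.11.15, scipy 1.17.1, checked against limma 3.58.1 and tested on simulated data). Regions named are the 12 largest called rises without overlap, up to 3 called regions per gene list or else the smallest p, the 5 that vary least and 5 that vary most in WT, genes with most regions, and those at the limits; the rule also asked for the 4 largest called falls, and 0 were called. Regions and gene lists were chosen with earlier results of these data known.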

Additional observations from a re-analysis of the deposited data

How the results depend on the processing

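The count of 213 called regions depended on how the spread was estimated: 0 were called with unmoderated dispersion (980 at an unadjusted p under 0.05) and 0 by limma on log2 ratios (941). It ranged from 66 (without KO replicate 2) to 375 (without WT replicate 3) when a library was left out, was 119 among regions chosen by the KO mean and 138 among those with 5 to 19 positions. With all covered tiles tested, a threshold of 20 points, a coverage minimum of 20, the highest-coverage positions left out, or no dense tile within 20 tiles it was 193, 163, 238, 233 and 184. Regions called lower numbered 0, ranged from 0 to 3 when a library was left out (3 without WT replicate 3, 1 without WT replicate 2), and were 1 among regions chosen by the KO mean. The mean difference was 2.97 points for regions chosen by the KO mean, and 3.38 to 6.23 under the other alternatives. A replicate block raised the called regions to 317, while deviations of same-numbered libraries correlated at 0.0228, 0.00206 and 0.00354. The labels do not say whether the numbers pair the samples, and with 3 libraries per group these correlations cannot decide it. The main test used no block.

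The difference in the spread of CpG levels within a region (-0.432) changed sign for regions chosen by all 6 libraries (0.0203) and ranged from -0.989 to 0.0358 when a library was left out (0.0358 without WT replicate 2). The strand difference ranged from -1.9995 to 0.0755 and changed sign without WT replicate 2. The difference in the share of reads ranged from -0.0973 to 0.0233, changed sign without WT replicate 1 and was 0.00592 with the low cytosine of split CpGs left out, an alternative added after seeing the data, as were the regions without low beside high positions and, for these 3 measures and the flanks, the choice by all 6 libraries. The cause of these changes was not tested. By depth, 1.82% of regions whose shallowest library was under the median were called and 4.21% of the others.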
